A study of Homo sapiens with 5 samples.

Results

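TGF-beta is a secreted signal that cells read through a short chain of proteins. The ligands, here TGFB1 and TGFB2, bind the receptor TGFBR2, which recruits and activates the receptor TGFBR1. The activated receptors phosphorylate SMAD2 and SMAD3, which pair with SMAD4 and act on DNA in the nucleus. SMAD6 and SMAD7 are inhibitory SMADs, and SKIL, also called SnoN, is a corepressor that holds SMAD complexes inactive. In breast cancer cells this pathway is known for its part in invasion and metastasis, and SMADs are known to act with AP-1 at many of their target sites.

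The 10 genes that encode these proteins were taken as the members of the pathway core, out of 20098 protein-coding genes in the annotation. Peaks of the transcription factors Fra-1, MYC and E2F1 were collected at each of them. Fra-1 (FOSL1) is a subunit of AP-1, MYC binds E-boxes together with MAX, and E2F1 is a regulator of cell cycle genes. A peak belonged to a gene when it lay in a promoter window, from 2 kb before to 2.5 kb after any annotated transcription start site (TSS), in the rest of the gene body, or in the 50 kb flanks. All coordinates are hg19.

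The chromatin came from MDA-MB-231 LM2 cells, a derivative of a triple-negative breast cancer line that metastasizes to the lung. It was crosslinked with 1% formaldehyde for 15 min and sheared to 200 to 700 bp. The antibodies were from Santa Cruz for Fra-1 and c-Myc and from Millipore for E2F1, with 1 ChIP library for each. There were no replicates, so no difference below could be set against a replicate error and no test was run. After filtering, the Fra-1 library had 12931227 tags, the MYC library 23853621 and the E2F1 library 18056168, and all 3 lists were called against the same input of 10758036 tags. The Fra-1 list held 17320 peaks, the MYC list 4867 and the E2F1 list 36933, so counts are read beside the share of all protein-coding genes that each list reaches. Libraries from EZH2 and input chromatin belong to the series, and no peak list of these was analysed here.

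The 5 strongest Fra-1 peaks of promoters and gene bodies that hold an AP-1 motif within 50 bp of the summit are shown here as sequence, since AP-1 is the known motif of this factor. Capitals mark the motif, TGACTCA or TGAGTCA, and every sequence is the plus strand of GRCh37 within 50 bp of the Fra-1 summit. The TGFBR2 window, chr3:30648033-30648107, was shortened on the side of the transcript. The SMAD3 windows were chr15:67417959-67418059, chr15:67383723-67383823 and chr15:67368644-67368744, and the TGFB2 window was chr1:218550776-218550876.
TGFBR2 promoter: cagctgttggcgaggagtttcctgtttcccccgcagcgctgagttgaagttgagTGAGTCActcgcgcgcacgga
SMAD3 alternative promoter: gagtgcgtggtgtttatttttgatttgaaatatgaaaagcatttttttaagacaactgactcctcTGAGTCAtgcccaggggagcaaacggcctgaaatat
SMAD3 intron site: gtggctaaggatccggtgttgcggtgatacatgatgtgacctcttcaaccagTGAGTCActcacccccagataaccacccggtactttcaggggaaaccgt
SMAD3 upstream of an internal TSS: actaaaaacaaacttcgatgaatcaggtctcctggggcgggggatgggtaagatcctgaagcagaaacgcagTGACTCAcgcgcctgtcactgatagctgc
TGFB2 intron site: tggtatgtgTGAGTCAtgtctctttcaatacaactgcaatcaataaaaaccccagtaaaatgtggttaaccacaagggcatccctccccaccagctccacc

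E2F1 peaks were called in promoter windows of every member, and Fra-1 and MYC peaks in those of 3 each. This order depended on the lengths of the lists. With the 4867 peaks of largest −log10 q kept in each, E2F1 was at 2 members, Fra-1 at 2 and MYC at 3, and with a −log10 q of at least 5 MYC was at 1. Shares of all protein-coding genes were not computed for the shortened lists, and those below are of the full lists. Of the 10 genes, 10 had an E2F1 peak in a promoter window, beside 61.3% of all protein-coding genes. Fra-1 peaks lay in promoter windows of TGFBR2, SMAD3 and SMAD6, where 13.2% of all protein-coding genes had one. MYC peaks lay in those of TGFB1, SMAD3 and SMAD6, beside 17.8% of all protein-coding genes. SMAD3 and SMAD6 had promoter peaks of all 3 factors, a pattern of 4.67% of protein-coding genes, and 3 members had both Fra-1 and E2F1, beside 12.3%. The members were longer than most genes, with a median of 68.6 kb against 27.3 kb, and a longer gene with more TSS offers more promoter windows.

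When only the canonical TSS of each gene was used, E2F1 was still at 10 members (58.1% of protein-coding genes) and MYC at 3 (16.1%). Fra-1 fell to 2 members, TGFBR2 and SMAD6, where 7.30% of protein-coding genes had a peak. The gene that dropped out was SMAD3, whose Fra-1 promoter peaks were all at internal TSS. Over the gene and its 50 kb flanks, Fra-1 reached 8 members (55.8% of protein-coding genes), with no peak at SMAD2 and SMAD4. MYC reached 3 members (39.5%) and E2F1 10 (83.0%).

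In total 44 Fra-1, 11 MYC and 82 E2F1 peaks lay in the 10 loci, and SMAD3 held 20, 3 and 34 of them. SMAD3 thus carried 45.5% of the Fra-1 peaks and 41.5% of the E2F1 peaks, so totals over the list depend strongly on this gene. The loci held 25.1 Fra-1 peaks per Mb, beside 7.21 over all protein-coding loci, and 15.8 without SMAD3. For E2F1 the density was 46.8 peaks per Mb, beside 17.9 over all loci and 31.6 without SMAD3. MYC had 6.28 peaks per Mb, beside 2.53 over all loci and 5.27 without SMAD3. Without SMAD3, TGFB1 held 18 of the 48 E2F1 peaks and 6 of the 8 MYC peaks. The typical locus differed less from other genes than these densities. The median number of peaks per member locus was 2 for Fra-1, 3.5 for E2F1 and 0 for MYC. Over all protein-coding genes the medians were 1, 3 and 0. Most Fra-1 peaks were away from promoters, with 10 in promoters, 17 in gene bodies and 17 in flanks. E2F1 had 39 in promoters, 21 in gene bodies and 22 in flanks, and MYC had 4, 3 and 4. SMAD3 held 7 of the 10 Fra-1 and 16 of the 39 E2F1 promoter peaks. The same split was not computed for all protein-coding loci.

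**Figure D1:**
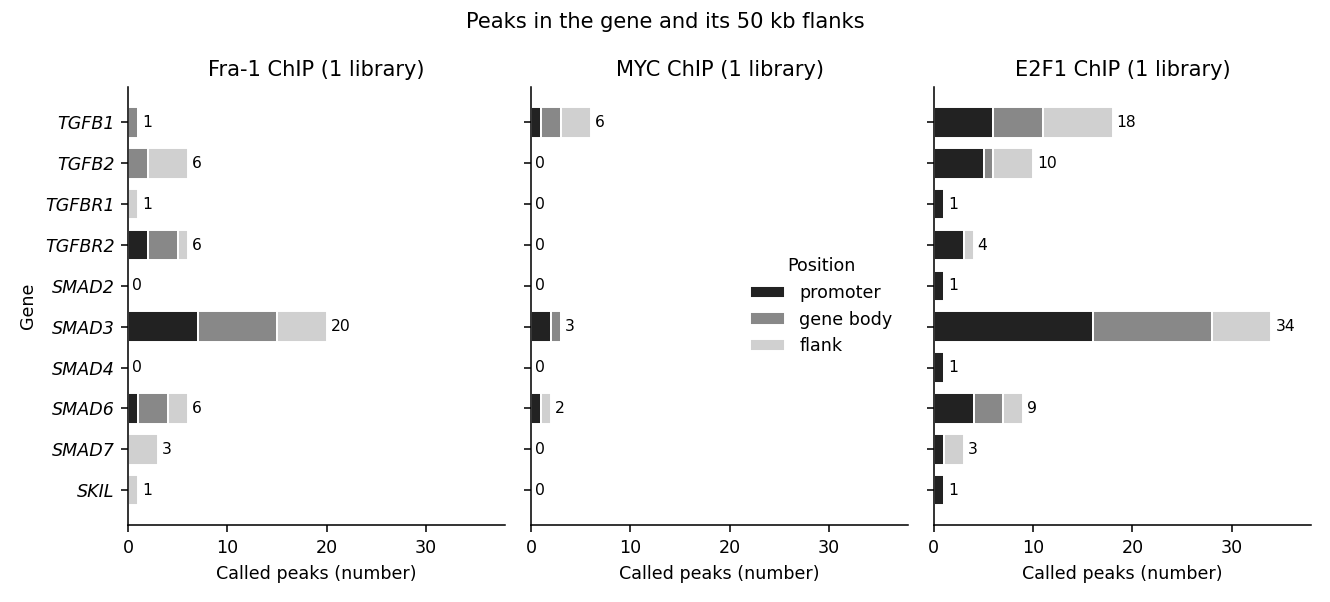
Number of called peaks (x axis) at each of the 10 genes (y axis) in the Fra-1, MYC and E2F1 lists, 1 library each, with shades for peaks in promoters, gene bodies and 50 kb flanks and the total at the end of each bar. SMAD3 has the longest bar for Fra-1 (20 peaks) and E2F1 (34 peaks), TGFB1 for MYC (6 peaks), and SMAD2 and SMAD4 have E2F1 peaks only.

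Peak strength at the members lay close to that of each full list. Fold enrichment, the deposited ratio of the pileup at the summit to the local background from the input, had a median of 8.78 over the 44 Fra-1 peaks and 8.24 over the whole list. The medians for MYC were 6.14 at the members and 6.67 over the list, and those for E2F1 were 8.14 and 8.88. The Fra-1 peaks ranged from 3.35 to 26.0, the MYC peaks from 4.54 to 7.70 and the E2F1 peaks from 3.04 to 36.1. The 11 MYC peaks lay above 3.4% to 68.1% of the MYC list, so none was among its strongest. Fold enrichment is only roughly comparable between libraries of different depth.

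**Figure D2:**
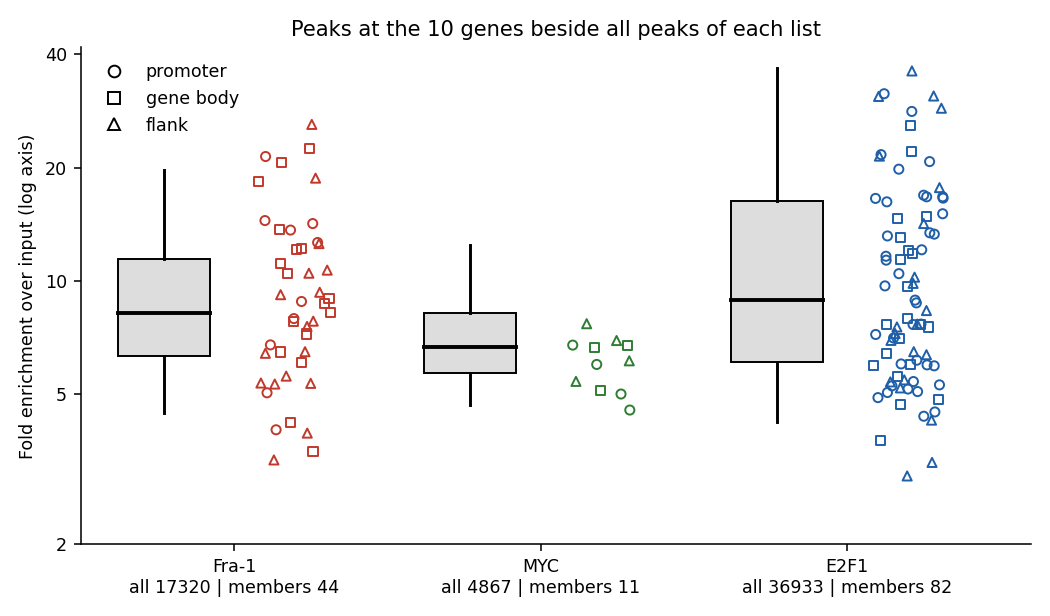
Fold enrichment over input (y axis, log scale) of the member peaks (coloured points, by position) beside all peaks of the same list (grey box from the 25th to the 75th percentile, line at the median, whiskers from the 5th to the 95th), for Fra-1, MYC and E2F1. The Fra-1 points run from 3.35 to 26.0 and the E2F1 points from 3.04 to 36.1, while the MYC points, from 4.54 to 7.70, stay below the top of their box, and the member medians are 8.78, 6.14 and 8.14 against 8.24, 6.67 and 8.88 for the lists.

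The ligand genes differed in which factors lay near them. TGFB1 (ENSG00000105329, chr19:41807492-41859827, minus strand) encodes the most widely expressed TGF-beta ligand. Its promoter windows held 6 E2F1 peaks, and the strongest, chr19:41858999-41859625, lay 338 bp after the canonical TSS with a pileup of 15, a fold enrichment of 11.4 and a −log10 q of 16.3. The other 5 ran from 5.27 to 9.70. The MYC promoter peak, chr19:41857768-41857859, had its summit 2028 bp after the TSS, a pileup of 7 and a fold enrichment of 6.0 (−log10 q 4.36). No Fra-1 peak lay in a TGFB1 promoter window. These windows are shared with TMEM91, a gene that overlaps TGFB1, so the same peaks count for both.

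The annotated TGFB1 gene body reaches past the end of the canonical transcript, at position 41836228, and into CCDC97. All 8 peaks placed in the TGFB1 gene body (1 Fra-1, 2 MYC and 5 E2F1) lay beyond that end. The strongest was an E2F1 peak of 25.9 (pileup 63, −log10 q 75.3), in a promoter window of CCDC97, at chr19:41815773-41816735. The strongest MYC peak there had a fold enrichment of 6.73 (pileup 9, −log10 q 5.37), and the Fra-1 peak, chr19:41829479-41829806, had 10.5 (pileup 19, −log10 q 15.2). The flanks of TGFB1 are gene dense. There, 3 MYC and 7 E2F1 peaks lay in promoter windows of other protein-coding genes, and these were all such flank peaks among the 10 members. The strongest flank peak of E2F1, 36.1, was in the promoter of HNRNPUL1, and that of MYC, 7.70, in promoter windows of BCKDHA and EXOSC5.

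TGFB2 (ENSG00000092969, chr1:218518678-218617961, plus strand) encodes a second TGF-beta ligand. E2F1 had 5 peaks in its promoter windows, the strongest at chr1:218518332-218519246 with a summit 59 bp before the canonical TSS (pileup 42, fold enrichment 16.7, −log10 q 41.6). Another reached 16.2, at 3051 bp after the TSS. No Fra-1 peak was called in a TGFB2 promoter window, and 6 were called further away. The Fra-1 gene-body peak with the largest fold enrichment, chr1:218550678-218550919, lay 32.1 kb after the TSS in an intron (pileup 47, fold enrichment 12.1, −log10 q 35.3), and an E2F1 peak of 3.77 overlapped it (pileup 17, −log10 q 4.20). A stronger Fra-1 peak of 18.7 lay in the flank, 114.8 kb after the TSS, with an E2F1 peak of 8.34 at the same place. No MYC peak was called at TGFB2 or its flanks.

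The receptors differed as well. TGFBR2 (ENSG00000163513, chr3:30648093-30735634, plus strand) encodes the receptor that binds the ligand. At its canonical TSS a Fra-1 peak and an E2F1 peak overlapped almost exactly. The Fra-1 peak, chr3:30647764-30648179, had its summit 10 bp before the TSS (pileup 34, fold enrichment 14.5, −log10 q 31.1). The E2F1 peak, chr3:30647714-30648201, had its summit 17 bp before it (pileup 75, fold enrichment 31.4, −log10 q 95.9), which was the largest E2F1 value in any member promoter. The AP-1 motif in the TGFBR2 window printed above spans 30648087 to 30648093, so its last base is the annotated TSS itself.

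A further Fra-1 peak of 4.03 lay at an internal TSS of TGFBR2, and 3 more lay in its introns, of which the strongest (chr3:30700712-30700933, pileup 34, fold enrichment 8.99, −log10 q 20.8) was 52.7 kb after the canonical TSS. None of these 4 overlapped an E2F1 peak. A weak pair lay 9.2 kb upstream, with Fra-1 at 3.95 and E2F1 at 3.04. The other E2F1 promoter peaks of TGFBR2 had fold enrichments of 15.1 and 5.09. TGFBR1 (ENSG00000106799, chr9:101866320-101916474, plus strand), the receptor that phosphorylates the SMADs, had a single E2F1 peak, chr9:101866681-101867146, 420 bp before the canonical TSS (pileup 25, fold enrichment 13.3, −log10 q 24.1). Its only Fra-1 peak, of 6.43, lay 49.5 kb upstream inside COL15A1. Neither receptor gene had a MYC peak.

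**Figure D3:**
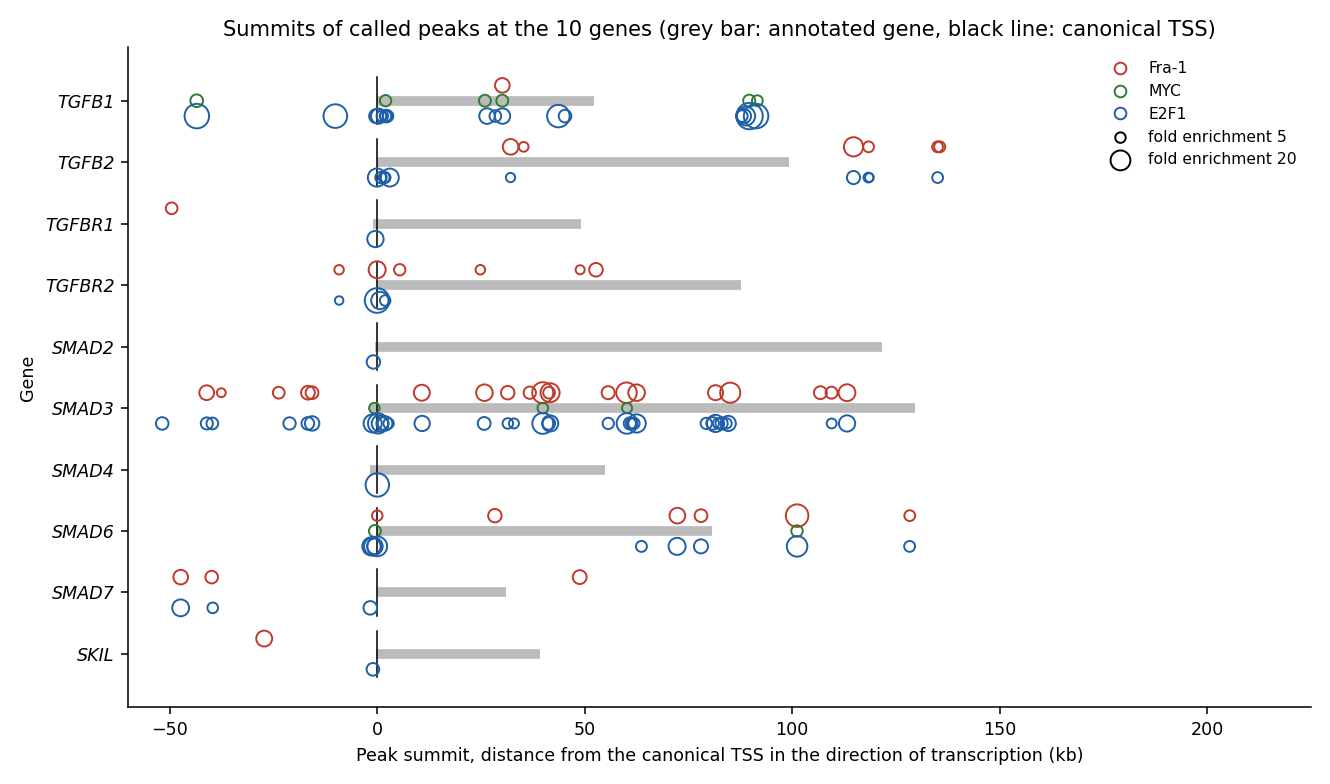
Summits of the Fra-1, MYC and E2F1 peaks at the 10 genes (rows) by distance from the canonical TSS in kb (x axis), with circle area growing with fold enrichment, grey bars for the annotated genes and a black line at the TSS. E2F1 circles sit at or near the TSS of all 10 genes, while Fra-1 circles sit within 20 bp of it only at TGFBR2 and SMAD6.

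SMAD3 (ENSG00000166949, chr15:67356101-67487511, plus strand) carries the signal from the receptors and has 18 annotated TSS. Within the gene 15 Fra-1 and 28 E2F1 peaks were called. Of the 2635 protein-coding genes at least as long as SMAD3, 14 had as many Fra-1 peaks or more in the gene, SMAD3 included, and 2 had as many E2F1 peaks. The medians over these long genes were 1 Fra-1 and 2 E2F1 peaks. For MYC, SMAD3 had 3 peaks and 31 of the long genes had at least as many.

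At the canonical TSS of SMAD3 there were E2F1 and MYC peaks and no Fra-1 peak. Of the 5 E2F1 peaks in the canonical window, the strongest, chr15:67358011-67358257, had its summit 215 bp after the TSS (pileup 35, fold enrichment 20.7, −log10 q 42.8). The MYC peak, chr15:67357249-67357418, lay 684 bp before it (pileup 9, fold enrichment 5.01, −log10 q 3.26). The nearest Fra-1 summit was 10754 bp after the TSS, with a fold enrichment of 12.6.

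The strongest promoter peaks of SMAD3 for Fra-1 and E2F1 were at an internal TSS at 67418054, 60.1 kb into the gene. There the Fra-1 peak chr15:67417899-67418276 (pileup 65, fold enrichment 21.4, −log10 q 67.1) and the E2F1 peak chr15:67417454-67418525 (pileup 67, fold enrichment 21.6, −log10 q 71.1) overlapped a MYC peak of 4.54 (pileup 12, −log10 q 3.09). The AP-1 motif of this site begins 15 bp after the Fra-1 summit. In the gene body a similar site lay 39.9 kb after the canonical TSS, with Fra-1 at 22.5 (pileup 49, −log10 q 55.3), MYC at 5.12 (pileup 9, −log10 q 3.18) and E2F1 at 22.1 (pileup 49, −log10 q 56.3). Their summits spanned 16 bp. Another intron peak of Fra-1, 85.1 kb after the TSS, reached 20.6, and the E2F1 peak that overlapped it, 11.4, had its summit 476 bp away. Fra-1 overlapped E2F1 at 16 of its 20 SMAD3 peaks, with a median fold enrichment of 11.9, and the 4 others had a median of 6.86.

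**Figure D4:**
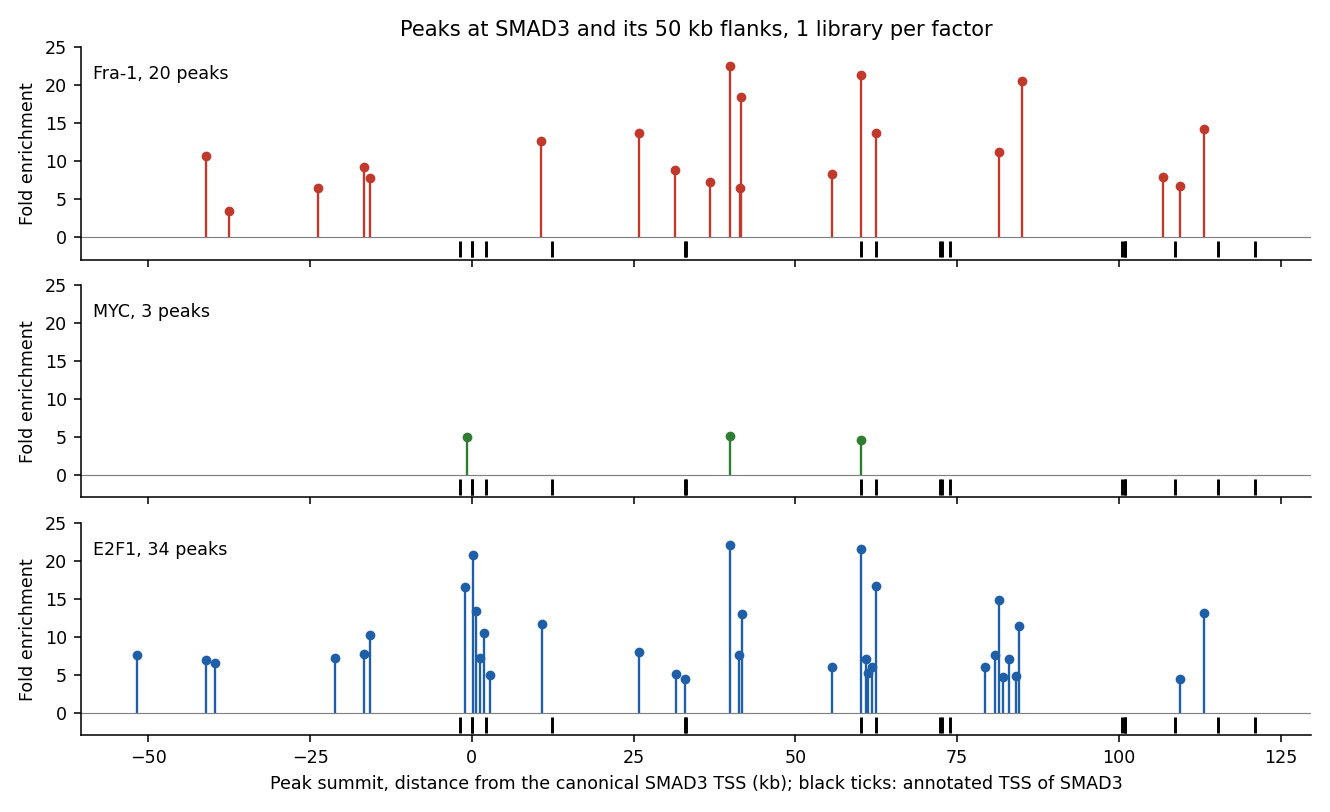
Fold enrichment (y axis) of each called peak at SMAD3 by distance from the canonical TSS in kb (x axis), for Fra-1 (20 peaks), MYC (3 peaks) and E2F1 (34 peaks), with black ticks at the 18 annotated TSS. E2F1 has a cluster at the canonical TSS where Fra-1 has none, and the tallest Fra-1 and E2F1 peaks stand together 39.9 and 60.1 kb into the gene.

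SMAD2, SMAD4 and SMAD7 lie on chromosome 18 and had few peaks. SMAD2 (ENSG00000175387, chr18:45335328-45457517, minus strand), the partner of SMAD3 in signaling, had 1 peak in all, for E2F1, at chr18:45457766-45458042, 910 bp before the canonical TSS (pileup 11, fold enrichment 8.75, −log10 q 10.1). SMAD4 (ENSG00000141646, chr18:48554898-48611415, plus strand), the common partner of both, also had 1 peak, for E2F1, at chr18:48556259-48556767. Its summit lay 36 bp after the canonical TSS and its fold enrichment was 28.2 (pileup 39, −log10 q 58.5), above 89.5% of the E2F1 list. SMAD7 (ENSG00000101665, chr18:46446223-46477335, minus strand), an inhibitor that acts on the receptors, had an E2F1 peak of 8.89 at chr18:46478746-46479451, 1670 bp before its TSS (pileup 11, −log10 q 10.4). Fra-1 was in the SMAD7 flanks only, at 3 places with fold enrichments of 7.57, 9.33 and 10.5. The strongest, 47.3 kb upstream, overlapped an E2F1 peak of 14.2.

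An absent peak can only be read where a peak could have been called, and the copy number of these genes in LM2 cells enters that. The E2F1 peaks at the promoters of SMAD2, SMAD4 and SMAD7 show that these stretches were present in the E2F1 library. The local background, worked back from each deposited pileup and ratio, was 0.372 fragments at the SMAD2 peak, 0.420 at the SMAD4 peak and 0.349 at the SMAD7 promoter peak. Its median was 0.996 over all E2F1 peaks and 0.922 over those of chromosome 18. In the SMAD7 flank the E2F1 peaks had 0.346 and 0.971. At other members the background ran from 0.736 to 3.90 at SMAD3, from 1.42 to 5.92 at TGFBR2 and from 0.329 to 1.99 at TGFB1. It ran from 0.435 to 2.84 at SMAD6 and from 1.28 to 3.85 at TGFB2. The TGFBR1 peak had 0.953 and the SKIL peak 1.99. At promoter peaks of these other members the lowest values were 0.329 at TGFB1 and 0.449 at SMAD6. Over chromosome 18, 11.7% of 266 protein-coding genes had a Fra-1 promoter peak, 7.14% a MYC promoter peak and 61.3% an E2F1 promoter peak. The part of copy number in the missing Fra-1 and MYC peaks was not tested.

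SMAD6 (ENSG00000137834, chr15:66994574-67075187, plus strand) encodes the other inhibitory SMAD, known best for restraining BMP signals. All 3 factors were at its canonical promoter, although at different points. The Fra-1 peak, chr15:66994532-66994657, was weak (summit 17 bp after the TSS, pileup 14, fold enrichment 5.05, −log10 q 5.27). The E2F1 peak over the same place, chr15:66994465-66994763, was the strongest of 4 in the promoter (pileup 58, fold enrichment 19.8, −log10 q 59.8). The MYC peak, chr15:66993972-66994103, was 550 bp before the TSS (pileup 8, fold enrichment 6.76, −log10 q 5.21) and overlapped a further E2F1 peak of 12.1. In the gene body the largest values were 12.2 for Fra-1 (pileup 16, −log10 q 17.1) and 14.6 for E2F1 (pileup 20, −log10 q 24.2), at chr15:67066804-67066941 and chr15:67066674-67066936. The largest Fra-1 value of any member, 26.0 (pileup 48, −log10 q 60.8), was in the SMAD6 flank, 101.2 kb after its TSS, and SMAD6 is the protein-coding gene whose canonical TSS is nearest to it.

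SKIL (ENSG00000136603, chr3:170075130-170114623, plus strand) had an E2F1 promoter peak, chr3:170074151-170074554, 1027 bp before the canonical TSS (pileup 22, fold enrichment 7.68, −log10 q 13.6). Its only other peak was for Fra-1, 27.2 kb upstream, with a fold enrichment of 12.6 and no E2F1 peak over it. All 17 Fra-1 flank peaks of the 10 members were nearer to the canonical TSS of the member than to that of any other protein-coding gene, and none lay in a promoter window of another such gene. The 3 flank sites at TGFB2, SMAD7 and SKIL are shown because they are the strongest in each flank to hold the AP-1 motif, in capitals. They are the plus strand of chr1:218633390-218633490, chr18:46524619-46524719 and chr3:170048235-170048335. SKIL has the motif at 2 places in this window.
TGFB2 flank: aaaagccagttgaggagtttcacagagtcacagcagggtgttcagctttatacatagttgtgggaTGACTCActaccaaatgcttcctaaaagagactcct
SMAD7 flank: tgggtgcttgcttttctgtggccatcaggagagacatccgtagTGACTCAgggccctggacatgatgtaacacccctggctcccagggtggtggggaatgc
SKIL flank: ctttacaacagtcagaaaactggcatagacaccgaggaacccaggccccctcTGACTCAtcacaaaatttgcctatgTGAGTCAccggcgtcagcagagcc

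Fra-1 and E2F1 often lay at the same places in these loci. Of the 44 Fra-1 peaks 29 (65.9%) overlapped an E2F1 peak, beside 61.5% of all Fra-1 peaks, and the median distance between the summits was 26 bp. Seen from E2F1, 30 of 82 peaks (36.6%) overlapped Fra-1, beside 28.3% of the whole E2F1 list. Inside the canonical promoters of protein-coding genes 2 of 35 E2F1 peaks (5.71%) overlapped Fra-1, and outside them 28 of 47 (59.6%). The whole E2F1 list had a like split, with 6.84% inside and 50.5% outside. The 29 Fra-1 peaks with E2F1 had a median fold enrichment of 10.7 and the 15 without it 6.49. Over the whole Fra-1 list the same medians were 9.32 and 7.16, in the same order. On the E2F1 side the order differed from that of the list. The 30 E2F1 peaks with Fra-1 had a median of 9.95 and the 52 without it 7.66, whereas over all E2F1 peaks the medians were 7.86 and 9.45. SMAD3 held 16 of the 30 and 18 of the 52, with medians of 10.8 and 7.05. Among members with both kinds of peak, only TGFB2 had the order of the whole list, with 4.27 and 5.99. These counts were small, with 1 E2F1 peak with Fra-1 at TGFB1 and 1 at SMAD7. TGFBR2 had 2 with it and 2 without. At SMAD6 the medians were close, 14.6 and 14.3. In 13 of the 30 overlapping pairs the E2F1 value was the larger. All 11 MYC peaks overlapped an E2F1 peak, as did 96.1% of all MYC peaks, and 4 of the 11 (36.4%) overlapped a Fra-1 peak, beside 21.4% of all MYC peaks.

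**Figure D5:**
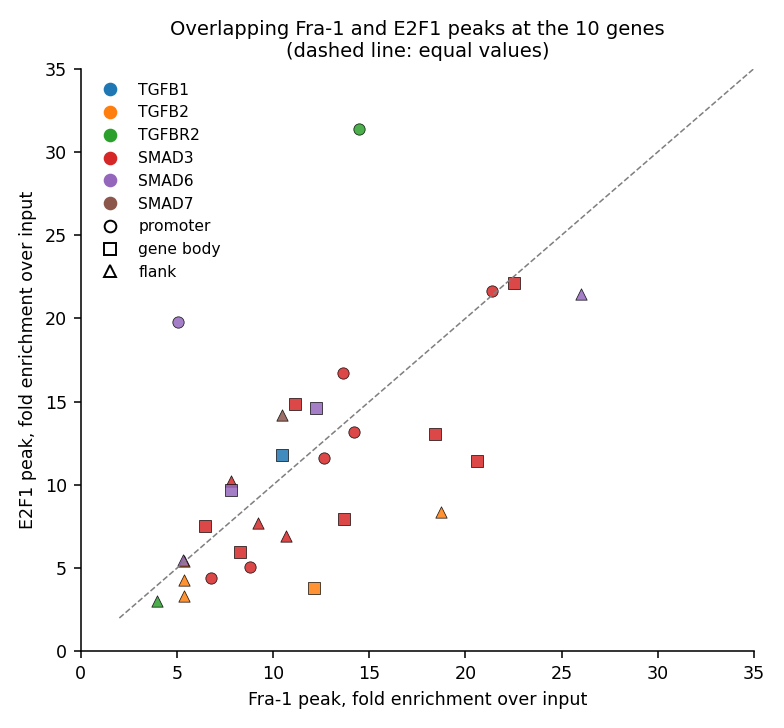
Fold enrichment of the Fra-1 peak (x axis) and of the E2F1 peak (y axis) for the 30 overlapping pairs at the 10 genes, coloured by gene and shaped by position, with a dashed line at equal values. The TGFBR2 promoter (14.5 and 31.4) and the SMAD6 promoter (5.05 and 19.8) stand farthest above the line.

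The genome held 1031 regions in which peaks of all 3 factors overlapped. The share of all protein-coding loci with such a region was not computed, so the count at the members has no background beside it. At these genes there were 4 such regions. They were chr19:41829624-41829768 past the end of the canonical TGFB1 transcript, chr15:67397814-67397905 and chr15:67418028-67418140 in SMAD3, and chr15:67095655-67095776 in the SMAD6 flank. At TGFB1 the values of Fra-1, MYC and E2F1 were 10.5, 6.73 and 11.8, and at the SMAD6 flank they were 26.0, 6.14 and 21.4. MYC was the lowest of the 3 factors at every one of the 4. Sequences of shared regions are shown by rule, with at most 30 untranslated bases each. The SMAD3 intron region and the SMAD6 flank region hold neither form of the AP-1 motif in the stretch printed. The SMAD3 region chr15:67418028-67418140 is not printed. The TGFB1 region lies in an untranslated stretch of CCDC97, so only its AP-1 sites are shown, chr19:41829624-41829646 and chr19:41829731-41829759, with the motif in capitals.
SMAD3 intron region: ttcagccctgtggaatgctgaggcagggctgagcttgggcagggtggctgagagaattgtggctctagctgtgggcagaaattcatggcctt
SMAD6 flank region: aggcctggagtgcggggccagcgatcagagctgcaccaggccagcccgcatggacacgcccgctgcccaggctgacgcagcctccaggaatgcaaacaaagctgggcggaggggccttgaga
TGFB1 region, left site: ggtccTGAGTCAtcccacacaca
TGFB1 region, right site: tggccgcctggTGACTCAgccaccgggcc

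Motifs were searched on both strands in the 101 bp centred on each summit, as a description of the sequence. An AP-1 motif lay at 23 of the 44 Fra-1 peaks (52.3%, exact Clopper-Pearson 95% interval 36.7 to 67.5%), beside 53.3% of all Fra-1 peaks. It was present at 6 of 10 promoter, 9 of 17 gene-body and 8 of 17 flank peaks. At the E2F1 peaks of the members the same AP-1 motif was found at 11 of 82 (13.4%), beside 12.2% of all E2F1 peaks. The E2F motif, searched as TTTCCCGC, TTTCGCGC, TTTGCCGC and TTTGGCGC, was at 0 of 82 E2F1 peaks (interval 0 to 4.4%). The share over all E2F1 peaks was 1.68%. The E-box CACGTG was at 1 of the 11 MYC peaks (9.09%, interval 0.23 to 41.3%), beside 16.8% of all MYC peaks. These intervals cover counting error only.

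The MYC peak with the E-box is the flank peak of TGFB1 in the promoter windows of BCKDHA and EXOSC5, so no MYC peak in a member promoter or gene body held it. The site is shown with the E-box in capitals (chr19:41903260-41903360), together with the E2F1 site of the SMAD2 promoter, which has none of the 4 E2F forms (chr18:45457890-45457990). The SMAD6 promoter is shown for a different motif. The palindrome GTCTAGAC, made of 2 SMAD boxes, was found near the summit of its Fra-1 and its E2F1 peak (chr15:66994541-66994573, capitals). The palindrome occurred at 0.052% of all Fra-1 peaks and 0.0515% of all E2F1 peaks.
TGFB1 flank, MYC: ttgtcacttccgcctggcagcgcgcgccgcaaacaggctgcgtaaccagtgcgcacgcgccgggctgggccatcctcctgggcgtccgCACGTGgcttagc
SMAD2 promoter, E2F1: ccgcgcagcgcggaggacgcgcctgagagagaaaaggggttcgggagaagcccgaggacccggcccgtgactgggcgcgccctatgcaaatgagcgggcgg
SMAD6 promoter: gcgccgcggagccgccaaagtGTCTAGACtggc

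The wider pathway was described with 60 other genes, all of which were found in the annotation. Of these, 49 (81.7%) had an E2F1 promoter peak, 16 (26.7%) a Fra-1 promoter peak and 9 (15.0%) a MYC promoter peak, beside the background shares of 61.3%, 13.2% and 17.8% given above. Among 15 ligands and genes that control ligands, 10 had E2F1, 4 Fra-1 and 1 MYC. Of the 12 receptors and co-receptors, 9 had E2F1, 1 Fra-1 and 1 MYC. SMADs and SMAD partners, 8 genes, had E2F1 at 6 and Fra-1 at 1, with no MYC promoter peak. The 11 negative regulators had E2F1 at 11, Fra-1 at 2 and MYC at 3.

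Among 14 known TGF-beta target genes, 13 (92.9%) had an E2F1 promoter peak, 8 (57.1%) a Fra-1 promoter peak and 4 (28.6%) a MYC promoter peak. The background shares were 61.3%, 13.2% and 17.8%, in the same order. At the canonical TSS alone Fra-1 was at 5 of the 14, beside 7.30% of all protein-coding genes with the same window. The list is short, and these differences were not tested. Promoter peaks of all 3 factors were found at 3 of the 60 genes, close to the 4.67% of all protein-coding genes. They were LTBP3, which helps store latent ligand, and the target genes JUNB and BHLHE40. JUNB, a partner of Fra-1 in AP-1, had the largest values of these, with Fra-1 at 17.8, MYC at 11.1 and E2F1 at 61.3. LTBP3 had 8.10, 6.66 and 26.9, and BHLHE40, a transcription repressor, had 5.83, 5.73 and 22.8. No promoter peak of any factor was called at 11 of the 60 genes. They were LRRC32, INHBA, INHBB, NODAL, BMP7, ACVRL1, ACVR1C, BMPR1B, SMAD9, CREBBP and CDKN2B. The share of all protein-coding genes with no promoter peak of any factor was not computed, and 61.3% had an E2F1 promoter peak. LRRC32, INHBA and CDKN2B had no peak in the gene or 50 kb flanks either, where 83.0% of protein-coding genes had an E2F1 peak. Without a peak no local background could be recovered at these genes. Whether their stretches are present in LM2 cells was not tested.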

How the data were processed

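Lists of called peaks for 3 factors were analysed, 1 library per factor. The study describes read trimming (Trimmomatic), alignment to hg19 with masked repeats (Bowtie), removal of duplicates, and a separate MACS2 call for every factor at a q-value of 0.01, always with the same input. The submitters' processing notes give Trimmomatic 0.27, Bowtie 0.12.5 and MACS2 2.0.10. The authors deposited a signal, which is the fragment pileup at each summit with the deeper library scaled down, and a fold enrichment, which is a ratio of pileup to background with a pseudocount of 1. The deposited p- and q-values are −log10 values. Background values printed here were derived from pileup and ratio and are approximate. The short lists held the same intervals (3 of 3) and were not used.

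Genes and TSS came from GENCODE 44 mapped to GRCh37, chromosomes 1 to 22 and X. Each peak was counted as promoter, then gene body, then flank, with an overlap of at least 1 bp. Alternatives changed the peak threshold, the number of peaks per list, the promoter window, the flank, the TSS used, the overlap rule and the motif distance. All 10 members are described, each with its strongest promoter and gene-body peak per factor. For the wider pathway, genes with promoter peaks of all 3 factors and genes with none are named. Sequences were printed by rule for the 5 strongest Fra-1 promoter or gene-body peaks with the motif and for shared regions. The flank, E-box, SMAD2 and SMAD6 sequences were chosen after their values were seen. The members and lists were chosen with earlier results of these data known. Placement, overlap and motif searches were tested on simulated data. Versions were samtools 1.23.1, matplotlib 3.10.9, scipy 1.17.1, Python 3.11.15, pandas 2.3.3 and numpy 2.4.6.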

Additional observations from a re-analysis of the deposited data

How the results depend on the processing

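Of 55 counts and shares recomputed under alternative settings, 43 stayed within 1.5 times of the reported value or within its interval, and 12 moved. With a −log10 q of at least 5, members with a MYC promoter peak fell from 3 to 1 (SMAD6), members with all 3 factors from 2 to 1, MYC peaks in the loci from 11 to 6 and regions shared by all 3 factors from 4 to 2. With equal numbers of peaks, the 4867 with the largest −log10 q in each list, E2F1 remained at 2 member promoters (TGFBR2 and SMAD3) in place of 10, members with all 3 factors numbered 1, Fra-1 peaks 15, E2F1 peaks 7 and shared regions 1. The E2F1 count thus depends on the length of its list. Shares of all protein-coding genes were not computed for the shortened lists. With flanks of 10 kb there were 28 Fra-1 and 7 MYC peaks, and with 1 canonical TSS per gene 1 member had all 3 factors. Taking each gene as its canonical transcript, added after seeing the data, left 44 Fra-1, 9 MYC and 76 E2F1 peaks. E2F motifs within 100 bp of the summit were at 3.66% of the E2F1 peaks.

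No paired analysis was possible because each factor had 1 library. Differences between the lists mix the factor with the antibody, the depth and the scaling of the library, which cannot be told apart. A peak that was not called is not evidence that the factor was absent. Assigning a peak to a gene by distance does not show which gene it acts on, if any.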
